A study of Mus musculus with 116 samples.

Results

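Developmental transcription factors of 15 families were followed through mouse preimplantation development: the LIM-homeodomain genes Lhx, the paired-domain genes Pax, the T-box genes Tbx, the homeobox genes Nkx, Irx, Dlx, Pitx, Barhl, Emx and Otx, the sine oculis relatives such as Six2 and Six4, the cut-homeobox genes Onecut, and the basic helix-loop-helix genes Sim, Neurod and Neurog. Members were taken by symbol, as 1 of these family names followed by a digit, with no filter on level. This gave 93 of the 24028 symbols present in all tables, of which 83 are protein-coding and 10 carry the suffix of an antisense or opposite-strand RNA. The families were chosen with the late 2-cell libraries in view, so their difference between those 2 libraries is a description and supports nothing further.

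The series concerned RNA polymerase II and the start of transcription in mouse oocytes and embryos. The labels give wild-type as the genotype, the females were 8 weeks old and hormone-stimulated, and the embryos were hybrids of C57BL/6N mothers and PWK fathers. Total RNA, depleted of ribosomal RNA, came from about 100 oocytes or embryos per library: MII oocytes (mature, arrested in meiosis, 13 h after hCG), PN5 zygotes (late pronuclear, 30 h), early 2-cell embryos (36 h) and late 2-cell embryos of 2 groups. Zygotes of both late groups were collected at 23 h and kept for 14 h in 0.1% DMSO (control) or 60 uM DRB, an inhibitor of transcription elongation (the group labelled mTBE, an abbreviation the labels do not expand), then released on reaching the 2-cell stage and cultured for 12 h. In addition, the inner cell mass (ICM) at 98 h gave 2 libraries made with Smart-seq2, which captures polyadenylated RNA.

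Each total RNA group held 1 library, so no difference between groups could be tested or set against a replicate spread, and only the 2 ICM libraries are replicates. Values are the authors' FPKM, fragments scaled to transcript length and to the mapped total. PN5, control and mTBE values stand in a common table, whereas the MII, early 2-cell and ICM tables were normalized separately. How deeply the total RNA libraries were sequenced is unknown. The labels were checked against marker genes. The 8 oocyte markers were at 1 FPKM or more in all 5 total RNA libraries. Of 9 markers of the 2-cell stage, 1 was at 1 FPKM or more in MII, 8 in the control and 9 in the mTBE library, and the 9 ICM markers were at that level in both ICM libraries. The 8 trophectoderm markers were also at 1 FPKM or more in both ICM libraries, with summed levels of 1809 and 1548 FPKM. In bulk RNA of whole embryos, fewer cells with a transcript and less transcript per cell cannot be told apart.

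These factors bind DNA and set the identity of organs and cell types after implantation: Pax6 the eye, Six2 the kidney, Tbx20 the heart, Neurog1 and Neurog2 sensory neurons. Most of their genes have CpG-rich promoters and are kept silent by Polycomb proteins in pluripotent cells. A few have known roles earlier: Lhx8 is required in oocytes for the formation of the follicle reserve, and Tbx3 and Otx2 act in pluripotent cells.

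Upstream sequences of 4 members are shown because their CG dinucleotides are counted below for members present in the egg and for those that appeared later. Promoters were matched by symbol for 65 of the 93 members in RefSeq (assembly GRCm38.p6, not the authors' mm9), and the 250 bases before the first listed start were used. CG dinucleotides are in capitals. The members shown were picked by their values among those matched: Pax6 and Lhx6 as the largest mTBE differences of protein-coding genes at 5 FPKM or more in either late library, Irx2 as the highest in the control among those below 1 FPKM in MII and PN5, and Lhx8 as the highest in MII. The Pax6 window lies at chr2:105668646-105668895 on the + strand and holds 15 CG. The Lhx6 window lies at chr2:36105409-36105658 on the - strand and holds 14. That of Irx2 lies at chr13:72628570-72628819 on the + strand and holds 19, and that of Lhx8 at chr3:154330561-154330810 on the - strand and holds 4.
Pax6: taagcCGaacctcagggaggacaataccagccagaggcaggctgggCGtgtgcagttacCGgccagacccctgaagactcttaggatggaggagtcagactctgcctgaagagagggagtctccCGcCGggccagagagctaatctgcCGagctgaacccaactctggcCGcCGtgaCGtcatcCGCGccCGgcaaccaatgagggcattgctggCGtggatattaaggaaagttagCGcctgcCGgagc
Lhx6: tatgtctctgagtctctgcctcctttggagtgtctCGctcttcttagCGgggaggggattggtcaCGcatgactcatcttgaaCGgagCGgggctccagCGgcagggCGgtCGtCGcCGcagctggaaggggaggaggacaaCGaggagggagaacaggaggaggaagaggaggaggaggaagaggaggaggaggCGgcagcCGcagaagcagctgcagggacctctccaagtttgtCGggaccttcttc
Irx2: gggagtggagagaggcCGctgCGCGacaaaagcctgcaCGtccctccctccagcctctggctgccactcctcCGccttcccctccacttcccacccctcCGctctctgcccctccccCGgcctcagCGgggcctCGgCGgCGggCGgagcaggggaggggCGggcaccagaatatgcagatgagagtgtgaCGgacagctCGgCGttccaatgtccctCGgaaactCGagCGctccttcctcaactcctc
Lhx8: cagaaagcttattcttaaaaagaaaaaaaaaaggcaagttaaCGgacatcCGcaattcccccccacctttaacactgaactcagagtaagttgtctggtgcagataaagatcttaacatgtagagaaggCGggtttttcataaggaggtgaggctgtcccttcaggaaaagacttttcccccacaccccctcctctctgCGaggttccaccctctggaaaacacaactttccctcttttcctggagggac

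Most members were at or near 0 up to the early 2-cell stage. At 1 FPKM or more were 14 of 93 in MII (42.2% of all symbols), 12 in PN5 (41.6%) and 18 in the early 2-cell library (39.6%), against 40 in the late 2-cell control (51.9%) and 57 in the mTBE library (54.2%). The ICM libraries had 6 (40.1%) and 7 (39.1%). As a share of the 93 this was 15.1%, 12.9%, 19.4%, 43.0%, 61.3%, 6.45% and 7.53% in the same order, above the share of all symbols in the mTBE library alone. Across all 7 libraries 60 members reached 1 FPKM at least once, 28 reached 5 FPKM, 33 stayed below 1 FPKM, and 5 of these were listed at 0 throughout. The highest level of a member was in the mTBE library for 61, in the control for 11, in MII, PN5 or the early 2-cell library for 10 and in an ICM library for 6. This tally was not made over all symbols, and the families were chosen with the late 2-cell libraries in view, so nothing is read from it.

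**Figure D1:**
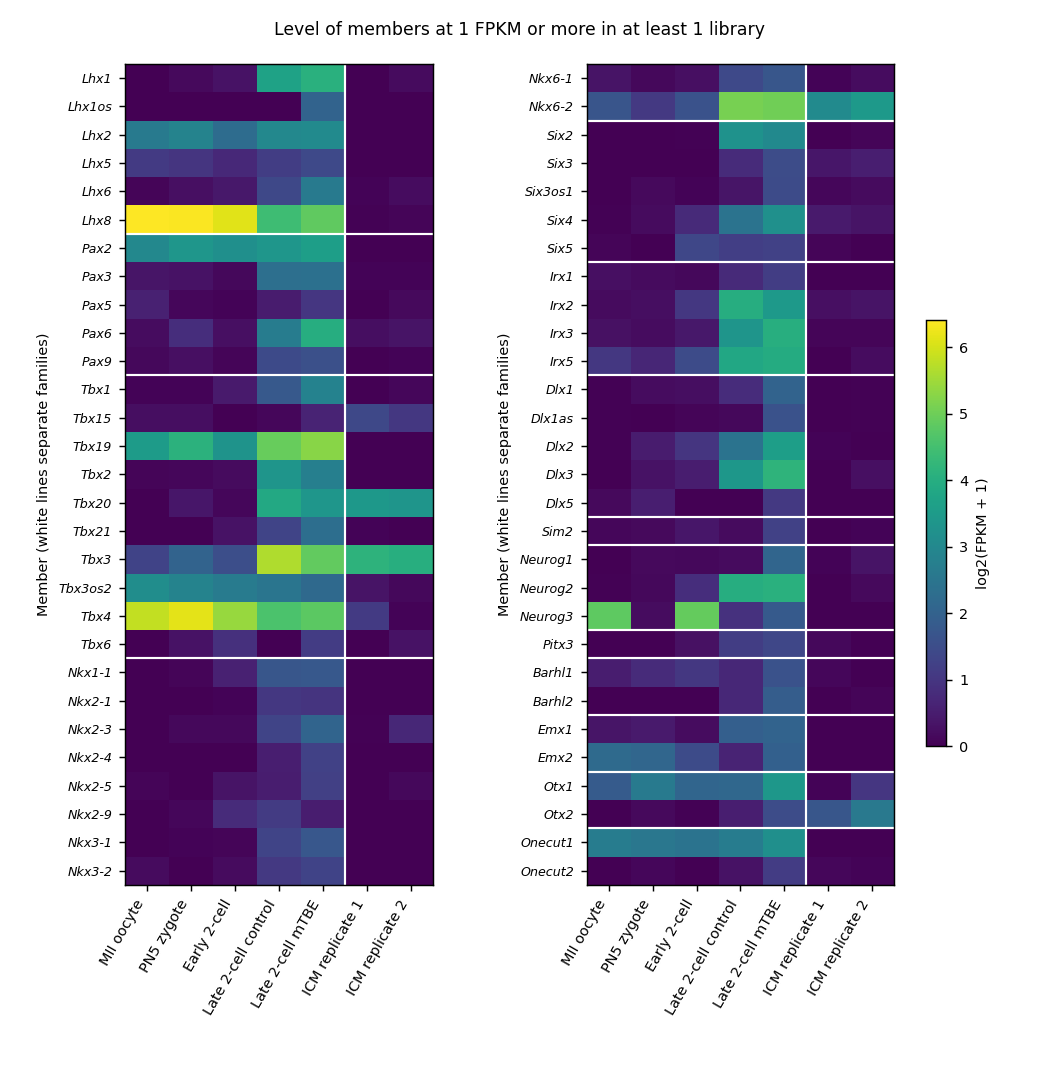
Levels of members that reached 1 FPKM in any library and are reported here, as log2(FPKM + 1) in color, with members in rows by family and the 7 libraries in columns. Lhx8 and Tbx4 are brightest on the left, most other rows brighten in both late 2-cell columns, and few stay bright in the ICM columns right of the white line.

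A small set was already abundant in the egg. There were 11 members at 1 FPKM or more in both MII and PN5. Lhx8 was at 84.1 FPKM in MII, 81.9 in PN5, 68.8 in early 2-cell, 20.5 in the late control and 27.8 in mTBE embryos, and at 0.0330 and 0.0696 in the ICM libraries. Tbx4, a factor of hindlimb growth, was at 56.0, 70.1, 41.6, 23.3 and 26.9 FPKM in the same order, and at 1.13 and 0.0448 in the ICM. Both were highest in MII or PN5 and lowest in the ICM, with the late 2-cell libraries between. Emx2, a cortical and urogenital homeobox gene, was at 3.68 FPKM in MII, 3.35 in PN5, 1.76 in early 2-cell, 0.564 in the control and 2.89 in the mTBE library, and listed at 0 in the ICM. These 3 were the members at least 2-fold lower in the late control than in PN5.

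Of the other members at 1 FPKM or more in MII and PN5, Tbx3 and Nkx6-2 were far higher in the control and are described below, and the rest differed by under 2-fold between PN5 and the control. Tbx19, which specifies pituitary corticotrophs, was at 10.4 FPKM in MII, 16.3 in PN5, 8.75 in early 2-cell, 29.5 in the control and 37.3 in mTBE embryos. Pax2, a kidney factor, was at 6.94, 9.29, 8.21, 9.32 and 11.0 FPKM in these libraries. Lhx2, a forebrain and eye factor, was at 5.26, 6.31, 3.79, 6.94 and 7.42 FPKM. All 3 were listed at 0 in both ICM libraries. Onecut1, a liver and pancreas factor, was at 5.49, 4.81, 4.46, 5.46 and 8.13 FPKM in the same 5 libraries and Otx1 at 2.59, 5.16, 3.29, 3.44 and 9.43. In the ICM, Onecut1 was listed at 0 and Otx1 was at 0.0446 and 1.04 FPKM. The antisense symbol Tbx3os2 was at 7.82, 6.25, 5.35, 4.60 and 3.53 FPKM in the total RNA libraries and at 0.255 and 0.107 in the ICM.

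Neurog3, the inducer of endocrine pancreas, had an irregular course. It was at 27.5 FPKM in MII and 28.8 in early 2-cell embryos, each from a table of its own, but at 0.149 in PN5, 0.889 in the control and 2.51 in the mTBE library, which share a table. It was 1 of 72 symbols at 10 FPKM or more in MII and early 2-cell and below 1 in PN5, and the only member among them. Stage and table therefore cannot be told apart for Neurog3.

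Few members could be 2-fold apart between MII and early 2-cell embryos, since 19 of 93 reached 1 FPKM in either library. Only Six5, a relative of Six2 and Six4, was at least 2-fold higher on the log2(FPKM + 1) scale, where a difference of 1 was taken as 2-fold throughout. It was at 0.0585 FPKM in MII and 1.59 in early 2-cell embryos. That is 1 of 93, against 1.77% of all symbols, and 0 were lower, against 12.8%. Of the 19 at 1 FPKM or more in either library, 1 was higher (3.98% of all symbols at that level) and 0 were lower (28.8%). With the median of genes at 5 FPKM or more set to 0 (it was -0.57), 6 members were higher (4.42%), and Lhx8, Tbx4, Tbx19, Lhx2, Onecut1, Nkx6-2 and Tbx3os2, lower as deposited, turned to higher.

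PN5 and control embryos can be compared within a table. The control was at least 2-fold higher for 31 of 93 members (16.5% of all symbols) and lower for 3 (9.23%), with a median difference of 0.35, against 0.00 over all symbols. Stage cannot be told apart here from the DMSO and culture that only the late embryos had. Of the 31, 14 were at 5 FPKM or more in the control. In the mTBE library, set against the same PN5 library, 43 members were at least 2-fold higher (16.5%) and 2, Lhx8 and Tbx4, were lower (9.93%), with a median of 0.90. Both late groups share the PN5 library, so the counts are not independent of each other.

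Several T-box genes were far higher in both late 2-cell libraries than before. Tbx3, which acts in limb and mammary development, was at 1.45 FPKM in MII, 3.08 in PN5, 1.91 in early 2-cell, 49.3 in the control and 28.5 in mTBE embryos. Tbx20, a heart factor, had no signal listed in MII and reached 0.320, 0.0799, 13.6 and 9.30 FPKM in the next 4. Tbx2, active in heart and limb, was at 0.0589, 0.0813, 0.140, 9.09 and 5.83 FPKM. In all 3 the control was the higher of the late libraries. Of the 14 Tbx members, Tbx3 and Tbx20 stood above 5 FPKM in the ICM, at 16.6 and 15.3 FPKM and at 9.74 and 9.21 in replicates 1 and 2.

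Six2, Six4 and Irx genes were also low up to the early 2-cell stage. Six2, a factor of nephron progenitors, was listed at 0 in MII and PN5 and stood at 0.0257 FPKM in early 2-cell, 8.71 in the control and 7.30 in mTBE embryos. Six4 was at 0.0198, 0.146, 0.689, 4.47 and 8.25 FPKM. Both genes were below 1 FPKM up to early 2-cell embryos and several-fold above it in both late libraries. Irx2 was at 0.138, 0.189, 1.07, 15.1 and 9.95 FPKM, Irx3 at 0.218, 0.155, 0.333, 9.22 and 15.2, and Irx5 at 1.05, 0.626, 1.74, 13.2 and 14.4. Irx2, Irx3 and Irx5 are patterning genes of neural tube, heart and limb, and Irx4 and Irx6 were below 0.5 FPKM in all libraries.

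Other genes of the nervous system and kidney joined them. Lhx1, a factor of head and kidney development, stood at 0 in MII, 0.112 FPKM in PN5, 0.238 in early 2-cell, 12.0 in the control and 15.7 in mTBE embryos. Neurog2 was at 0.0335, 0.0990, 0.789, 14.9 and 15.8 FPKM. Nkx6-2, a factor of the ventral neural tube, was at 2.20, 1.09, 2.09, 33.4 and 31.6 FPKM, and at 7.37 and 9.96 in the ICM. Late control and mTBE levels of these 3 lay close together. Nkx6-2 was the highest of the 15 Nkx members, of which 8 were at least 2-fold higher in the control than in PN5.

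**Figure D2:**
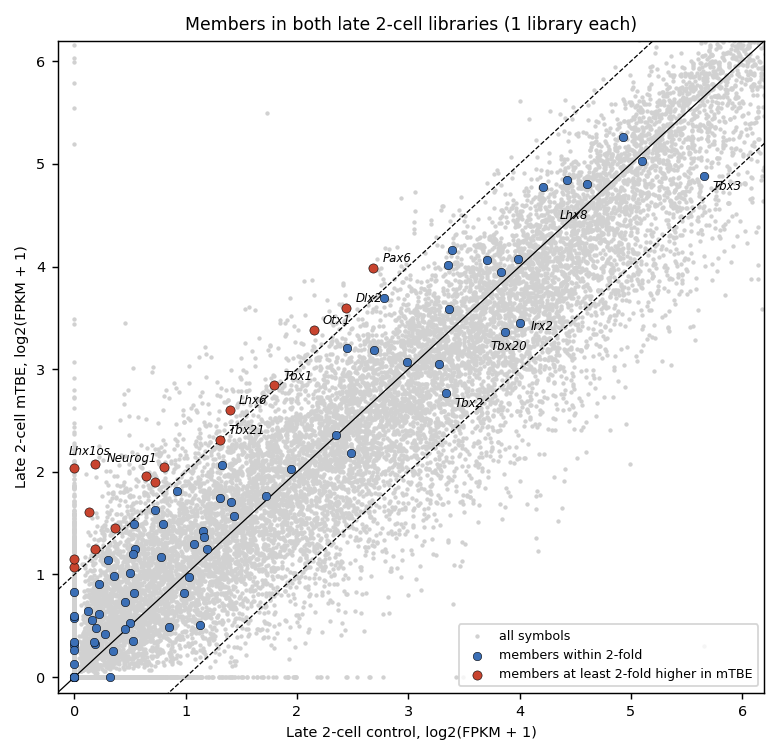
Control (x) against mTBE (y) late 2-cell embryos, log2(FPKM + 1), 1 library each; gray points are all symbols, colored points the 93 members, the solid line equality and the dashed lines a difference of 1. The 16 red members lie above the upper dashed line and no member lies below the lower one; Tbx3, Irx2, Tbx20 and Tbx2 are labelled among the 6 abundant members below equality.

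Members were mostly higher in mTBE than in control embryos. Of the 93, 16 were at least 2-fold higher (3.18% of all symbols) and 0 lower (5.71%), with a median difference of 0.30 against 0.00 over all symbols. At any size 70 were higher (37.7%), 14 lower (37%) and 9 equal, and the rest of all symbols were equal as well. Of the 59 members that reached 1 FPKM in either of these libraries, the same count of 16 was at least 2-fold higher (5.57%), while 0 were lower (9.99%). At any size 50 of the 59 were higher (46.6%) and 9 lower (53.4%). Their median was 0.52, against -0.05 over all symbols at that level. The families were chosen on this contrast, so nothing is read from these shares. With a pseudocount of 0.1 FPKM 38 members were higher (12.6%) and 2 lower (10.7%). Just inside the threshold stood Tbx21 at a difference of 1.01 and Tbx1 at 1.05, and, of the members named here, Otx2 at 0.95 and Barhl1 at 0.90 stood just outside it.

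The 16 members came from 10 families. Of these members 10 were below 1 FPKM in the control, 3 of them listed at 0, and 5 were at 5 FPKM or more in the mTBE library. Pax6 was at 0.153 FPKM in MII, 0.801 in PN5, 0.194 in early 2-cell, 5.44 in the control and 14.9 in mTBE embryos. Dlx2, a factor of forebrain interneurons, was at 0.0348, 0.403, 0.991, 4.44 and 11.1 FPKM. Both had appeared by the late control and were higher again in the mTBE library. Otx1, a forebrain gene present in the egg, was at 3.44 FPKM in the control and 9.43 in the mTBE library, Tbx1, a factor of the pharyngeal arches, at 2.47 and 6.18, and Lhx6, which guides cortical interneurons, at 1.63 and 5.09.

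The rest of the 16 were lower. Neurog1 stood at 0.140 FPKM in the control against 3.23 in the mTBE library, and at 0 to 0.123 in MII, PN5 and early 2-cell. Dlx1, neighbour of Dlx2, was at 0.748 and 3.15 FPKM, Tbx21, the T-bet gene of T helper cells, at 1.47 and 3.97, and Barhl2, a neural homeobox gene, at 0.653 and 2.73. Emx2 was at 0.564 and 2.89 FPKM, a case in which the mTBE library lay near PN5 (3.35) and the control below both. Sim2 was at 0.135 and 1.37 FPKM. Dlx5, a bone and craniofacial factor, and Tbx6, a factor of presomitic mesoderm, were listed at 0 in the control and stood at 1.10 and 1.22 FPKM in the mTBE library. The last 3, Lhx1os (listed at 0 and 3.11 FPKM), Dlx1as (0.0944 and 2.04) and Six3os1 (0.291 and 1.74), are antisense symbols.

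Among the remaining genes in the 20 largest differences, Otx2 stood at 0.448 FPKM in the control against 1.81 in the mTBE library, Barhl1 at 0.652 and 2.09, and Neurog3 at the levels given above. Dlx3, a gene of placenta and skin that was not among the 20, was at 9.52 and 16.9 FPKM. All of these were higher in mTBE embryos by less than 2-fold on the log2(FPKM + 1) scale. Some abundant members were lower: of 25 that reached 5 FPKM in either late library, 6 were lower in mTBE embryos. The share of all symbols lower at any size was not taken with this filter. Shares of all symbols that were higher, by mean level, are given below. At 1 FPKM or more in either library, 9 of 59 members and 53.4% of all symbols were lower. The 6 were Tbx3 (difference -0.77), Tbx2 (-0.56), Irx2 (-0.55), Tbx20 (-0.50), Six2 (-0.23) and Nkx6-2 (-0.07, which turned to 0.02 with the median log2 ratio set to 0).

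**Figure D3:**
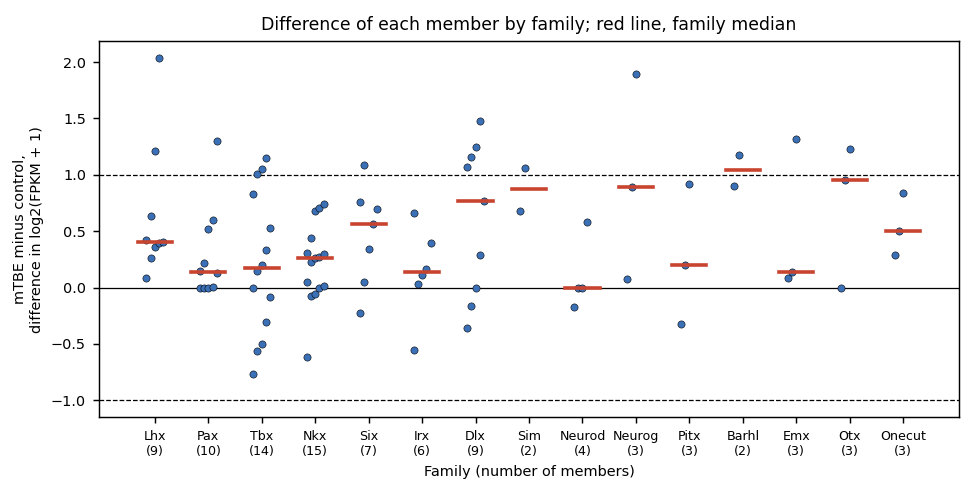
Difference in log2(FPKM + 1), mTBE minus control, for each member by family (x, number of members in brackets); points are members, red lines family medians, dashed lines a difference of 1. Barhl, Otx, Neurog, Sim and Dlx have the highest medians, from 0.76 to 1.04, and of the 14 Tbx members 8 lie above 0 and 5 below.

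By family, 14 of 15 medians lay above 0, and that of the 4 Neurod genes was 0.00. Dlx had a median of 0.76 over 9 members, 4 of them at least 2-fold higher. The 2 Barhl members had a median of 1.04, the 3 Otx symbols 0.95, the 3 Neurog genes 0.89 and the 2 Sim genes 0.87. The family of Six2 and Six4 stood at 0.57 over 7 members, Onecut at 0.50 over 3 and Lhx at 0.40 over 9. All 9 Lhx members were at a higher FPKM in the mTBE library (37.7% of all symbols, with 37% lower and the rest equal). Of LIM-homeodomain genes with other names, Lmx1a and Lmx1b were lower there and Isl1 and Isl2 slightly higher. Lower medians were those of Nkx (0.26 over 15, none at least 2-fold apart), Pitx (0.20 over 3), Tbx (0.17 over 14), Irx (0.14 over 6), Emx (0.14 over 3) and Pax (0.14 over 10). With only symbols at 5 FPKM or more, the median of Tbx turned to -0.15 and that of Nkx to -0.07. The first then rested on Tbx1, Tbx2, Tbx3, Tbx4, Tbx19 and Tbx20, the second on Nkx6-2 alone. No other family median changed sign in this comparison. Neurod genes, which drive neuronal differentiation, were hardly detected: the highest was Neurod2, listed at 0 in the control and at 0.495 FPKM in the mTBE library.

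The same contrast was tabulated by level. With a mean of both libraries above 0 and below 1 FPKM, 28 of 34 members were higher (63.6% of all symbols at that level), and 3 were at least 2-fold higher (4%). From 1 to 5 FPKM it was 25 of 27 (52%), 10 of them at least 2-fold (8.4%). From 5 to 20 FPKM 13 of 17 were higher (35.7%), 3 at least 2-fold (2.39%). At 20 FPKM or more 4 of 6 were higher (48.2%), 0 at least 2-fold (1.2%). Nothing is read from these shares either, since the families were chosen on this contrast.

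**Figure D4:**
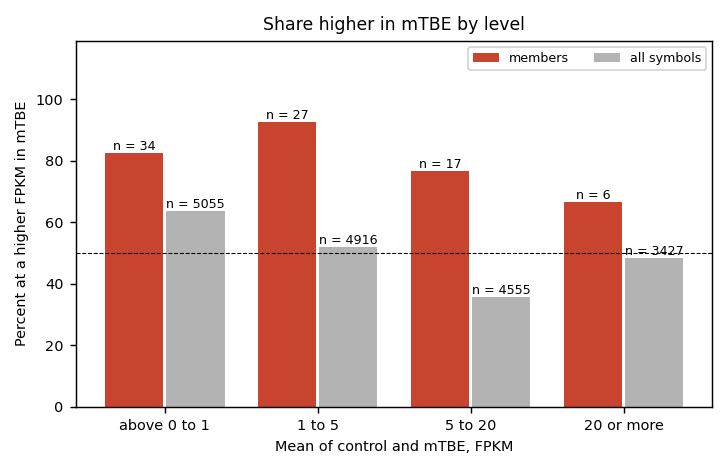
Percent of members (red) and of all symbols (gray) at a higher FPKM in the mTBE than in the control library (y), by the mean level of both libraries in FPKM (x); the number of symbols stands above each bar. The red bar is the taller in all 4 ranges, from 66.7% to 92.6%.

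Gene classes that are silent in early embryos were listed above 0 more often in the mTBE library too. Of 1117 olfactory receptor symbols 5.10% were above 0 in the control and 8.50% in the mTBE library, with 77 higher and 43 lower. For 332 vomeronasal receptors these shares were 4.82% and 8.43%, with 23 higher and 11 lower. Of the members 74 (79.6%) and 83 (89.2%) were above 0, and of all symbols 68.5% and 72.1%. Of 10 neural markers 8 were at a higher FPKM in mTBE embryos, and their summed level was 123 and 155 FPKM, most of it Tubb3 (74.8 and 86.5), which was at 196 in MII. Among these markers Sox1, a neural progenitor factor, was at 10.1 FPKM in the control and 21.6 in the mTBE library, and 2 of the 10 were listed at 0 in each. Of the 9 markers of the 2-cell stage 8 were lower in mTBE embryos, 4 of them at least 2-fold, with a median difference of -0.89 and sums of 381 and 178 FPKM. Of 12 cumulus and granulosa markers 5 were higher and 5 lower, with sums of 60.5 and 40.6 FPKM. In each late library 7 of the 12 were at 1 FPKM or more, and the cumulus gene Ptx3 was listed at 0 in both. At least 2-fold apart were Foxl2, higher in mTBE embryos (1.04 and 7.20 FPKM), and Amhr2, lower (16.7 and 2.12). The part of these levels in the differences of the members was not tested.

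Of the members, 29 fell into 17 pairs that adjoin on the chromosome with no other protein-coding gene between them. In the control 11 pairs differed by at least 2-fold and 6 did not, such as Nkx2-1 (1.04 FPKM) and Nkx2-9 (1.18). In 3 of the 17 pairs both genes were below 1 FPKM in the control. On the log2(FPKM + 1) scale such pairs cannot be 2-fold apart, so they fall among the 6. The same tally was not made over all adjoining genes, so nothing is read from these counts. Tbx3 was at 49.3 FPKM in the control while its neighbour Tbx5, a forelimb and heart factor, was at 0.269. Tbx2, at 0.0589 FPKM in MII, adjoins Tbx4, at 56.0. Within the Irx clusters, Irx2 (15.1 FPKM in the control) lies between Irx1 (0.713) and Irx4 (0.410), and Irx5 (13.2) between Irx3 (9.22) and Irx6 (0.132).

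Antisense symbols and their partners are uncertain one by one, since the use of strand is not given and overlapping reads cannot be assigned. Dlx1as and Dlx1 were both at least 2-fold higher in mTBE embryos. Lhx1os was at 3.11 FPKM in the mTBE library and listed at 0 in the control, whereas Lhx1 was at 15.7 and 12.0. Without the 10 antisense symbols 13 of 83 members differed by at least 2-fold, all higher in the mTBE library, with a median of 0.33. The share of all symbols was not taken under this setting. Nothing is read from this count, since the families were chosen on this contrast.

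**Figure D5:**
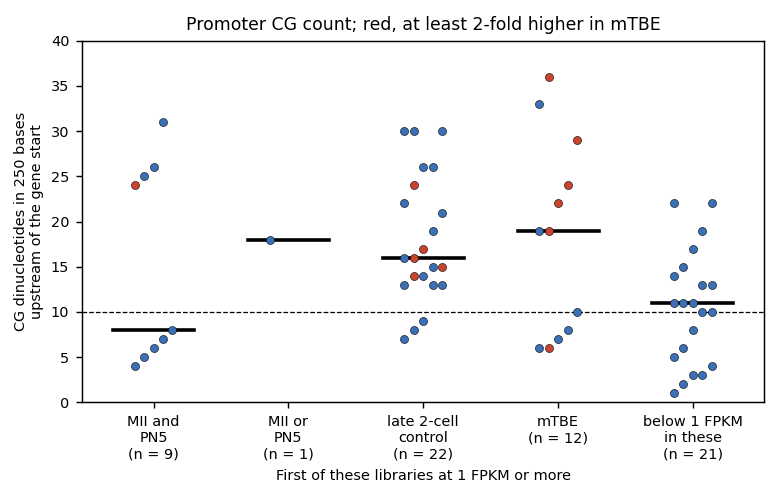
CG dinucleotides in the 250 bases upstream (y) of the 65 members with a RefSeq promoter, by the first of MII and PN5, late control or mTBE in which the member was at 1 FPKM or more (x); black lines are medians, the dashed line the median of all symbols, and red points members at least 2-fold higher in mTBE. Medians are 8 for members in MII and PN5, 16 for those first in the late control, 19 for those first in the mTBE library and 11 for those below 1 FPKM in all 4.

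Promoters of the members were richer in CG than those of other genes. The 250 upstream bases held a median of 14 CG over 65 members, against 10 over 16892 symbols of the tables with a promoter, and a median GC content of 61.6% against 55.6%. The motif TATAAA, searched on both strands, was in 5 of 65 windows (7.69%), against 11.9% of all. The 9 members at 1 FPKM or more in both MII and PN5 had a median of 8 CG, with Lhx8 at 4, Tbx4 at 6 and Tbx19 at 7, but Lhx2 at 25 and Onecut1 at 31. The 22 members below 1 FPKM in MII and PN5 and above it in the control had a median of 16. The 12 below 1 FPKM in MII, PN5 and the control and above it in the mTBE library had a median of 19. The early 2-cell and ICM libraries did not enter these sets. Of the 12, Barhl1 passed 1 FPKM in early 2-cell embryos (1.04) and Otx2 in the ICM (2.29 and 5.03). The 21 that stayed below 1 FPKM in MII, PN5, control and mTBE had a median of 11. Of the members at least 2-fold higher in the mTBE library, 12 had a promoter, with a median of 20.5 CG and a range of 6 (Tbx6) to 36 (Barhl2). The other 53 had a median of 13 and a range of 1 to 33. These sets were cut on expression values and differ in size, no test was made, and the count of CG depends on the start listed first.

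Partners, relatives and regulators of these factors, 60 genes on 9 lists, mostly lay within 2-fold between the late libraries. Of these, 4 were at least 2-fold higher in mTBE embryos (3.18% of all symbols) and 0 lower (5.71%). The TALE homeobox cofactors Meis1 (0.406 and 3.02 FPKM) and Meis2 (34.8 and 91.0) were higher, 2 of 9 on their list. So were the T-box gene T (0.258 and 1.66), which specifies mesoderm and is 1 of 4 listed relatives, and the Polycomb subunit gene Cbx8 (5.33 and 11.8), 1 of 17. Eomes, a T-box gene of trophoblast, was at 7.44 and 11.4 FPKM. A list of 10 LIM genes held partners and the LIM-homeodomain genes Isl1, Isl2, Lmx1a and Lmx1b. None of the 10 was 2-fold apart, with 6 higher and 4 lower. Lmo1 was at 209 and 264 FPKM and the cofactor Ldb1 at 49.6 and 46.6. Lmx1a (13.4 and 7.96) and Lmx1b (5.36 and 2.31) were lower, Isl1 (1.05 and 1.13) and Isl2 (14.0 and 14.5) slightly higher. Of 6 cofactors of Six2, Six4 and their relatives none was 2-fold apart, with Eya3 at 29.6 and 28.9 and Eya1 at 9.85 and 14.3. Groucho corepressors had a median of -0.68 over 5 genes and Id inhibitors, which block helix-loop-helix factors, of -0.45 over 4, with Tle4 at 29.4 and 16.4, Aes at 27.1 and 30.5, Id2 at 12.5 and 17.9 and Id3 at 4.49 and 3.55. The E proteins Tcf3 (32.1 and 18.4) and Tcf12 (10.4 and 10.2) and the Sim partners Arnt (36.6 and 38.1) and Arnt2 (listed at 0 and 0.131) were within 2-fold. The Polycomb genes Rbbp7 (131 and 134) and Bmi1 (571 and 697) were as well, and the 17 Polycomb genes had a median of 0.03. The TALE gene Pbx2 was at 19.3 and 38.2 FPKM and the T-box relative Mga at 29.7 and 23.9.

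In the ICM 5 members were at 1 FPKM or more in both replicates: Tbx3, Tbx20 and Nkx6-2 at the levels given above, Otx2 at 2.29 and 5.03 FPKM, and Tbx15, a skeletal factor, at 1.63 and 1.07. Otx2 was higher here than in any total RNA library, the highest of which was 1.81 in mTBE embryos. Others passed 1 FPKM in 1 replicate, among them Otx1 (0.0446 and 1.04) and Tbx4 (1.13 and 0.0448). Between the replicates 1 of 93 members, Tbx4, was at least 2-fold higher in replicate 1 (1.16% of all symbols) and 0 lower (0.961%), with 16 higher (40.3%) and 40 lower (28.9%) at any size. The ICM levels come from another library protocol and a separately normalized table, and trophectoderm markers were present in these libraries. Their part in the levels of the members was not tested.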

How the data were processed

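Per the submitters' processing notes, the tools CASAVA 1.8, TopHat2 2.1.1 and Cufflinks 2.1.1 and the build mm9 were used, without a role for each file; the handling of multi-mapped reads and of strand is not given in the sources used here. The authors deposited FPKM per gene symbol in 4 tables for 7 RNA libraries, and the other 109 of 116 samples were not analysed here. The value column of the MII file is headed like the title of a chromatin sample; it was used as MII RNA because the file is deposited under that RNA library. The late 2-cell column named for DRB was taken as the library labelled mTBE.

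Rows sharing a symbol were summed, and the 24028 symbols in all tables were used (0 value columns lacked a sample). Differences were taken as log2(FPKM + 1), with a pseudocount of 1 FPKM that understates changes of low genes, and a difference of 1 was called 2-fold. With 1 library per total RNA group no test was possible. Low values showed no common step in the total RNA libraries (at most 16 of 580 genes at 1 ratio), so depth is unknown there; in the ICM pair 199 of 1972 lay at 1 ratio, 0.474. A simulation with large changes set in genes at 5 FPKM or more checked only that the size rule was coded as intended. It does not bear on lower levels, where most members lay. Members, families and lists were chosen with earlier results of these data known. Named members were the 20 largest late 2-cell differences at 1 FPKM or more, the highest of each family, and all at 5 FPKM or more; other members named in the text were chosen after their values were seen. RefSeq tables of GRCm38.p6 gave biotypes, neighbours and promoters. Computation used Python 3.11.15, numpy 2.4.6 and pandas 2.3.3. Alternatives were another pseudocount, level filters, 2 rescalings, the highest row per symbol, and antisense symbols left out. Some members are counted but not reported by name here.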

Additional observations from a re-analysis of the deposited data

How the results depend on the processing

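No paired analysis was possible because each total RNA group holds 1 library. The counts rest on low levels. Percentages in brackets are the share of all symbols under the same setting. For mTBE against control, 0.1 FPKM as pseudocount gave a median of 0.65, 38 higher (12.6%) and 2 lower (10.7%); a filter of 5 FPKM left 5 higher of 25 (2.85%); values rescaled to a sum of 1000000 gave 28 higher (7.74%) and 1 lower (8.76%), and the median log2 ratio set to 0 (from -0.10) 18 higher (3.91%). Control against PN5 had a median of 1.46 with 52 higher (27.3%) and 6 lower (13.6%) under the pseudocount, medians of 1.27 and 3.11 under filters of 1 and 5 FPKM, the latter with 14 higher of 22 (25.9%), and 0.78 under rescaling. mTBE against PN5 had 2.61 with 68 higher (29.7%), then 1.61, 2.91 with 19 higher of 26 (20.9%), and 1.66 in the same order. Early 2-cell against MII had 22 higher (9.95%) and 4 lower (20.4%) under the pseudocount, 0 higher with a filter of 5 FPKM (2.41%), 6 with the median set to 0 (4.42%), and 19 higher (8.48%) and 1 lower (10.6%) under rescaling. At 1 FPKM after rescaling stood 23 members in PN5 (48.7%), 38 in early 2-cell (54.9%) and 9 in the ICM mean (45.1%; 5 as deposited), also 9 at a minimum of 0.5 FPKM (44.5%). The ICM count was 7 without replicate 1 and 6 without replicate 2, and 15 members were 2-fold apart between replicates under the pseudocount (12%). A lower pseudocount weighs low values more by construction; for the other settings the cause was not tested. No value at least 2-fold apart changed sign in any of these settings. The early 2-cell against MII median, 0.05, was -0.27 with the filter of 5 FPKM. Without known depth, a total RNA value listed at 0 has no upper limit here.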
